A study of Homo sapiens with 24 samples.

Results

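The response of OE33 xenografts to a high-fat diet was set against the response of cultured OE33 cells to forced TRIM15 expression, gene by gene and within a single model. OE33 is an established cell line of human esophageal adenocarcinoma (EAC). The comparison used 12 of the 24 libraries of the series, chosen by their labels as the diet experiment and the TRIM15 experiment, with 3 libraries in each of 4 groups. In the diet experiment, OE33 cells had been injected under the skin of male BALB/c-nu nude mice, which lack mature T cells. The mice were 4 weeks old when purchased and had been fed for 8 weeks on chow with 35% fat (HFD group) or 4.3% fat (ND group) before injection, and the tumors were excised after 21 days. In the TRIM15 experiment, OE33 cells in a dish were transfected for 48 h with a plasmid carrying HA-tagged TRIM15 (TRIM15-OE group, marked HA-TRIM15 in the plots) or with the empty vector (EV group), which carried the same backbone with its puromycin and GFP markers. The TRIM15 effect is therefore a short response to a plasmid in culture, whereas the diet effect accumulated over weeks in a mouse. The xenograft libraries are bulk RNA, so that fewer cells of a type and less RNA per cell cannot be told apart, and whether each library came from a separate mouse or culture was not stated, so that p-values measure the spread between these libraries.

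TRIM15 belongs to the tripartite motif family, whose members carry a RING domain and act as E3 ubiquitin ligases, the enzymes that attach ubiquitin to a chosen protein. Obesity surrounds a tumor with lipids, insulin and inflammatory cytokines, and epithelial cells answer such cytokines largely through NF-kB. NF-kB is held in the cytoplasm by inhibitors such as IκBα, and once freed it switches on chemokines, cytokines and its own inhibitors. The question behind setting the experiments side by side was which genes of the diet response also moved when TRIM15 was raised without any change of diet, which did not, and which moved the other way.

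Reads per library summed to between 19053958 and 39545549 in the HFD group, 20760355 and 45994561 in the ND group, 15534233 and 20901782 in the TRIM15-OE group and 20108463 and 26479130 in the EV group. Levels are given as CPM, the reads of a gene per 1000000 reads of the adjusted library total, and effects as log2 fold changes with their standard error (SE). TRIM15 itself had 14, 12 and 24 reads in the HFD libraries and 1, 0 and 0 in the ND libraries, and 111, 130 and 181 reads in the TRIM15-OE libraries and 0, 0 and 0 in the EV libraries. Against a floor of 3 reads in each control library, TRIM15 was at least 6.15-fold higher in HFD than in ND, and at least 64.5-fold higher in TRIM15-OE than in EV. The TRIM15-OE libraries thus held 5.56, 8.69 and 11.8 CPM of TRIM15 against 0.602, 0.643 and 0.618 CPM in the HFD libraries, so that the plasmid gave far more transcript than the diet did. Epithelial genes were high in all 12 libraries, with KRT19 between 5950 and 7190 CPM and EPCAM between 456 and 586 CPM. The first TRIM15-OE library stood apart from the other TRIM15-OE libraries along the axis that separated TRIM15-OE from EV (scores of -9.35 against -23.1 and -23.3, with EV at 16.9 to 18.5), and results are given without it where it decided them.

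Of 17160 genes tested, 4841 rose with HFD (28.2% of genes) and 3512 fell (20.5%), and 2016 rose with TRIM15-OE (11.7%) and 1596 fell (9.3%), at an adjusted p under 0.05 by edgeR's quasi-likelihood test. The difference between the diet effect and the TRIM15 effect, written here as diet minus TRIM15, was itself above 0 for 3694 genes (21.5%) and below 0 for 2339 genes (13.6%). Among called genes the median absolute log2 effect was 0.34 for diet and 0.22 for TRIM15, and 648 diet effects and 145 TRIM15 effects reached 2-fold. Across the 17160 genes the effects were weakly correlated (Pearson r 0.092, Spearman rho 0.122, a description across genes, which are not independent).

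The overlap in number was highest among genes that rose. Of the 4841 genes higher in HFD, 1128 (23.3%) were also higher in TRIM15-OE, where 11.7% of all genes were, and 424 (8.76%) were lower, where 9.3% of all genes were. Of the 3512 genes lower in HFD, 454 (12.9%) were also lower in TRIM15-OE, where 9.3% of all genes were, and 302 (8.6%) were higher, where 11.7% of all genes were. Read from the other side, 56.0% of the genes that rose with TRIM15-OE rose with HFD, against 28.2% of all genes. Of those that fell with TRIM15-OE, 28.4% fell with HFD, against 20.5% of all genes. Both directions together, 18.9% of the 8353 diet-responsive genes were called the same way with TRIM15-OE, and 43.8% of the 3612 TRIM15-responsive genes were called the same way with HFD. Both totals include the overlap that the shares over all genes would give by themselves.

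These results sorted the genes into classes. Genes called in both effects in the same direction are called shared, and made up 6.57% (higher) and 2.65% (lower) of the genes tested. Genes called in both in opposite directions made up 2.47% (higher with HFD, lower with TRIM15-OE) and 1.76% (lower with HFD, higher with TRIM15-OE). A gene was counted as diet alone only where the diet effect passed, the TRIM15 effect did not, and the difference passed, which held for 13.1% of genes upward and 8.01% downward. By the same rule 2.13% of genes rose and 2.23% fell with TRIM15-OE alone. A further 2416 genes were called for diet and not for TRIM15-OE but had no called difference, and for these the data did not decide whether TRIM15-OE moved them too. The plot of both effects for every gene shows the shared genes in the upper right and lower left corners and the diet-alone genes along the horizontal axis.

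**Figure D1:**
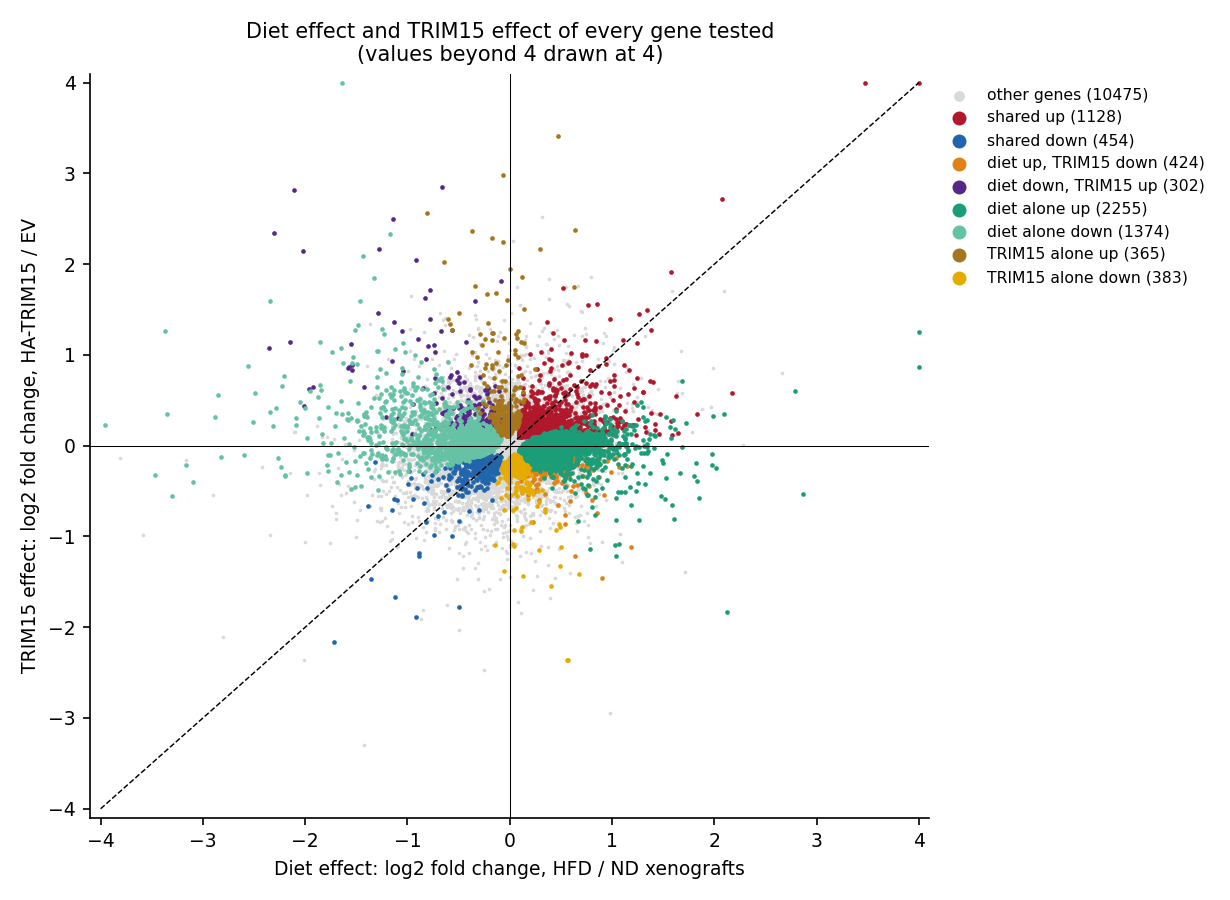
Each point is 1 of 17160 genes, with the diet effect (log2 fold change, HFD against ND) on the horizontal axis, the TRIM15 effect (log2 fold change, TRIM15-OE against EV) on the vertical axis, and the dashed line where they are equal; colours give the classes with their number of genes, and 5 genes beyond 4 are drawn at the edge. The 1128 shared higher genes sit at the upper right and the 3629 diet-alone genes lie along the horizontal axis.

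Many inflammatory genes rose in both experiments. Among 25 tested NF-kB subunits, inhibitors and feedback genes, 21 rose with HFD, 18 rose with TRIM15-OE and 16 rose with both. Over all genes 28.2%, 11.7% and 6.57% did so. None fell with HFD, and 2 fell with TRIM15-OE (8.0%, against 9.3% of all genes), of which 1 rose with HFD. Of 14 tested chemokines 9 rose with HFD, 6 rose with TRIM15-OE and 5 rose with both, while 1 fell with HFD and none with TRIM15-OE. Of 15 tested cytokines of the IL-1 and IL-6 families 12 rose with HFD, 8 with TRIM15-OE and 6 with both. Among these cytokines 2 fell with HFD and rose with TRIM15-OE (13.3%, against 1.76% of all genes). A further 1 rose with HFD and fell with TRIM15-OE (6.67%, against 2.47%). The median log2 effects of these lists were 0.40, 0.55 and 0.65 for diet and 0.25, 0.50 and 0.31 for TRIM15, beside 0.02 and -0.01 over all genes tested. Without the first TRIM15-OE library, 18, 7 and 7 members of the 3 lists rose with TRIM15-OE.

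Many genes of these lists carry an NF-kB site just before their start, and 4 shared members are shown here because the site can be read in the reference sequence. The letters are the 250 bases before the start of the gene in RefSeq's annotation of GRCh38.p14, 5′ to 3′ along the gene's own strand, and capitals mark matches on either strand to GGG, any 3 bases and then TTCC, a common form of the NF-kB site. CXCL2 (chr4:74099196-74099445, minus strand) and IL6 (chr7:22726950-22727199, plus strand) are secreted products, while TNFAIP3 (chr6:137867009-137867258, plus strand) and BIRC3 (chr11:102317234-102317483, plus strand) are feedback genes.
CXCL2: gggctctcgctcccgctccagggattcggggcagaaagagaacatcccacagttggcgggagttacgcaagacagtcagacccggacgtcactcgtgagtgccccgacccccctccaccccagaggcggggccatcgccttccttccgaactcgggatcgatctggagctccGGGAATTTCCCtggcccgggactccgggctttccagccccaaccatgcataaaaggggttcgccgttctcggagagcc
IL6: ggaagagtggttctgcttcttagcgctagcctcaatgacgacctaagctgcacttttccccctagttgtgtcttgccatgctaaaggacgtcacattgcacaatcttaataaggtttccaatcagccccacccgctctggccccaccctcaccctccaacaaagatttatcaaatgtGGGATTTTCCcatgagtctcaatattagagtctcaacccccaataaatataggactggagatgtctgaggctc
TNFAIP3: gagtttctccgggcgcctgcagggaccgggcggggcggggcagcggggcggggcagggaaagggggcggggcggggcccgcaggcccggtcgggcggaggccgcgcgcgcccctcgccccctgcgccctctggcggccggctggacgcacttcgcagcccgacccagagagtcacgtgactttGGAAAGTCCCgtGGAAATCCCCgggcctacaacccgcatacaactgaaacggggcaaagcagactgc
BIRC3: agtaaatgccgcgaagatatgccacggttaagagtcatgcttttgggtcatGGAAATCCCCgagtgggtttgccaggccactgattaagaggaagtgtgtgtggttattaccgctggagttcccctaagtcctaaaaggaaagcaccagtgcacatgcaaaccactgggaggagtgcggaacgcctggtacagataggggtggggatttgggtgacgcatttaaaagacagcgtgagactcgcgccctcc
The motif on one strand can overlap a match on the other, as in CXCL2, where 2 matches start 78 and 77 bases before the gene. The match in IL6 starts 73 bases before the gene, those in TNFAIP3 67 and 55 bases before it, and that in BIRC3 199 bases before it. Of the 27 members of the 3 lists that rose with both, 24 had a promoter in the reference table and 13 of these (54.2%) held the motif, against 8.79% of 11422 tested genes with a promoter. The lists contain known NF-kB targets, so that this share is not independent of how they were drawn up. Members of the same 3 lists that rose with diet alone held the motif in 2 of 5 promoters (40.0%), so that the motif was not particular to the shared members. Over all shared higher genes the share was 11.5% of 910 promoters, against 10.6% of 1712 for diet alone upward and 8.26% of 339 for genes higher with HFD and lower with TRIM15-OE. A match describes letters and not a bound site.

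Among the secreted members, CXCL8, the chemokine that draws neutrophils, had 148, 157 and 148 CPM in the HFD libraries and 84.5, 83 and 83.2 CPM in the ND libraries. In culture it had 75.6, 79 and 78.5 CPM with TRIM15-OE and 25.8, 26.9 and 26.2 CPM with EV. The groups did not overlap in either experiment, as was so for 55.6% of all genes in the diet experiment and 36.0% in the TRIM15 experiment. CXCL8 rose by 0.85 (SE 0.034, adjusted p = 3.19e-14) with diet and by 1.56 (SE 0.043, adjusted p = 5.12e-16) with TRIM15-OE, so that its TRIM15 effect was the larger (difference -0.71, SE 0.055, adjusted p = 4.19e-09). CXCL2, another neutrophil chemokine, had 155, 158 and 165 CPM in HFD against 89.2, 88.5 and 101 in ND, and 96, 93.2 and 88 CPM in TRIM15-OE against 52.8, 52.6 and 50.9 in EV. Its effects of 0.79 and 0.83 differed by -0.04 with a 95% interval of -0.19 to 0.10, an interval that spans 0.

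IL1A, an alarmin that itself activates NF-kB, had 98.9, 103 and 103 CPM in HFD and 48, 42.8 and 46.3 CPM in ND, and 58.9, 61.4 and 63.8 CPM in TRIM15-OE and 33.8, 34.4 and 34.9 CPM in EV. It rose by 1.16 with diet and by 0.83 with TRIM15-OE (difference 0.33, SE 0.066, adjusted p = 0.000516). IL6 went the other way in size, from 4.51, 4.35 and 3.53 CPM in ND to 5.93, 5.84 and 6.12 in HFD and from 1.37, 0.862 and 1.04 CPM in EV to 3.71, 3.68 and 3.45 in TRIM15-OE. Its TRIM15 effect was 1.74 (SE 0.17) against a diet effect of 0.52 (SE 0.11), and the difference of -1.22 passed (adjusted p = 0.000104). CSF3, the granulocyte growth factor, and IL11, a cytokine of the IL-6 family, rose by 1.34 and 1.24 with diet and by 1.5 and 1.13 with TRIM15-OE, and neither difference passed (95% intervals -0.42 to 0.11 and -0.24 to 0.47). Both of these genes were below 25 CPM in every library, with CSF3 at 23, 22.5 and 22.6 CPM in HFD and 7.46, 7.09 and 7.82 CPM in TRIM15-OE.

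The inhibitory arm of the pathway rose as well. TNFAIP3, the ubiquitin-editing enzyme A20 that shuts NF-kB off, had 1627, 1577 and 1595 CPM in HFD, 784, 812 and 777 CPM in ND, 1357, 1355 and 1383 CPM in TRIM15-OE and 868, 864 and 863 CPM in EV. It rose by 1.02 with diet and by 0.66 with TRIM15-OE (difference 0.36, SE 0.04, adjusted p = 5.81e-07). BIRC3, a ubiquitin ligase of the receptor complex, rose by 0.79 and 0.66 (difference 0.12, SE 0.049, adjusted p = 0.0549). Clear exceptions inside the list included TNFAIP2 and NFKBIZ. TNFAIP2 had 1030, 1024 and 1032 CPM in HFD against 539.8, 567 and 536 in ND, a rise of 0.91, but 366, 349 and 331 CPM in TRIM15-OE against 332, 339 and 339 in EV (effect 0.05, adjusted p = 0.343; difference 0.86, adjusted p = 4.79e-11). NFKBIZ, a nuclear partner of NF-kB, rose with TRIM15-OE alone (effect 0.25, adjusted p = 0.000188, against a diet effect of -0.04, adjusted p = 0.334).

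Interferon-stimulated genes, which defend cells against viruses, were shared in part. Of 41 tested, 24 rose with HFD (58.5%, against 28.2% of all genes) and 15 rose with TRIM15-OE (36.6%, against 11.7%). Both effects were called upward in 11, where 6.57% of all genes were. IFIT2, which binds viral RNA, had 411, 421 and 409.9 CPM in TRIM15-OE against 220.1, 235 and 232 in EV, a rise of 0.85, whereas HFD at 500.00, 521 and 502 CPM stood just above ND at 494, 456 and 477 CPM, a rise of 0.09 that did not pass when HFD replicate 2, ND replicate 2 or ND replicate 3 was left out. The difference for IFIT2 was -0.76 (SE 0.05, adjusted p = 3.09e-10).

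Several epithelial programs were shared in part. Of 15 tested keratins 10 rose with HFD (66.7%, against 28.2% of all genes) and 5 with TRIM15-OE (33.3%, against 11.7%), and these 5 rose with both. A further 2 rose with HFD and fell with TRIM15-OE, and 2 fell with HFD alone. KRT17 and KRT14 were among those that rose with both, while KRT5 had too few reads to be tested. KRT17 had 246, 234 and 237 CPM in HFD and 119.5, 127 and 116 in ND, and 119.8, 108 and 104 CPM in TRIM15-OE and 43.9, 42.5 and 40.6 in EV. Its TRIM15 effect of 1.39 exceeded its diet effect of 0.98 (difference -0.41, SE 0.069, adjusted p = 8.26e-05), and KRT14 rose by 1.26 and 1.45 (difference -0.19, adjusted p = 0.558) from levels of 1 to 6 CPM. Reads of keratin genes can be split among close copies, so that single keratins are uncertain. Of 28 tested proteases, integrins and matrix genes 21 rose with HFD (75.0%, against 28.2% of all genes) and 15 with TRIM15-OE (53.6%, against 11.7%). Both effects were called upward in 13, where 6.57% of all genes were. Most members still differed in size, with a difference above 0 for 18 (64.3%, against 21.5%) and below 0 for 7 (25.0%, against 13.6%). In 2 the effects were up with HFD and down with TRIM15-OE, and in 2 the reverse. PLAU, the urokinase protease, rose by 0.98 with diet and 0.31 with TRIM15-OE (difference 0.67, adjusted p = 1.36e-09), while LAMB3, a chain of laminin-332, rose by 0.42 and 0.61 (difference -0.18, adjusted p = 0.0145). SERPINB2, which inhibits urokinase, had 86.1, 87 and 88.8 CPM in HFD, 55.9, 60.9 and 57.7 in ND, 225, 238 and 238 in TRIM15-OE and 124, 124 and 121 in EV, and rose by 0.58 and 0.93.

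Genes of protein folding in the endoplasmic reticulum were shared too. Of 25 tested genes of the unfolded protein response, 17 rose with HFD (68.0%, against 28.2% of all genes) and 14 rose with TRIM15-OE (56.0%, against 11.7%). Both effects were called upward in 11, where 6.57% of all genes were, and the median effects of the list were 0.14 and 0.17. HSPA5, the chaperone BiP, had 1137, 1111 and 1106 CPM in HFD and 869, 834 and 894 in ND, and 1870, 1865 and 1910 CPM in TRIM15-OE and 1265, 1319 and 1296 in EV. Its effects were 0.37 and 0.54 (difference -0.17, SE 0.043, adjusted p = 0.00397). Other members differed in size between the experiments. CANX, the membrane chaperone calnexin, rose by 1.09 with diet and 0.20 with TRIM15-OE (difference 0.90, adjusted p = 9.65e-12), whereas DNAJB9, a BiP cofactor, rose by 0.13 and 0.75 (difference -0.62, adjusted p = 8.54e-09). Of 25 tested genes of cholesterol synthesis and uptake, 11 rose with HFD (44.0%), 9 with TRIM15-OE (36.0%) and 7 with both. INSIG1, the sterol-regulated brake on the pathway, was among the 7 (effects 0.45 and 0.49, difference -0.04 with a 95% interval of -0.20 to 0.11).

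Shared falls were fewer. SREBF1, the master regulator of fatty acid synthesis genes, had 66.2, 62.6 and 64.9 CPM in HFD against 76.2, 83.3 and 79.2 in ND and 64.8, 58.7 and 56.1 CPM in TRIM15-OE against 77.9, 72.7 and 75.1 in EV. Its effects were -0.30 and -0.32 (difference 0.02, 95% interval -0.12 to 0.16). KEAP1, which targets the antioxidant factor NRF2 for breakdown, fell by 0.21 and 0.26 on the log2 scale, and NFE2L2, the gene of NRF2, rose by 0.34 and 0.20. The largest shared falls by the naming rule were in transcripts near 1 to 5 CPM, such as the non-coding SWINGN (effects -0.81 and -0.84) and the pseudogenes GBAP1 and TPSP2, whose reads could belong to their parent genes.

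A large part of the diet response had no called counterpart in culture. The diet-alone classes held 3629 genes, and in 2388 of them (65.8%) the 95% interval of the TRIM15 effect lay within a 1.2-fold change either way. The class was defined by an uncalled TRIM15 effect, which favours such intervals, so that this share is in part built in. Most were expressed in culture, since 3373 of the 3629 had a mean of at least 1 CPM in a culture group. Neither share was counted over all genes tested, so that neither sets these genes apart from the rest. Of 235 genes that at least doubled with HFD, 59 (25.1%) rose with TRIM15-OE and 4 (1.7%) fell. Of 413 genes that at least halved with HFD, 8 (1.94%) fell with TRIM15-OE and 23 (5.57%) rose. Of all genes 11.7% rose and 9.3% fell with TRIM15-OE.

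Inflammatory genes were present among the diet-alone genes too. IL1B, the partner of IL1A in IL-1 signalling, had 30.8, 32 and 33 CPM in HFD and 10.9, 10.9 and 12.6 CPM in ND, with no overlap. In culture it had 8.86, 9.89 and 8.47 CPM in TRIM15-OE and 10.9, 10.3 and 10.02 CPM in EV. Its diet effect of 1.5 (SE 0.068) stood against a TRIM15 effect of -0.20 (SE 0.088, adjusted p = 0.129), and the difference was 1.69 (SE 0.11, adjusted p = 3.01e-10). S100A9, a calcium-binding protein of neutrophils and inflamed epithelium, had 29, 30.02 and 30.5 CPM in HFD, 7.22, 7.12 and 7.96 in ND, 2.75, 2.14 and 2.35 in TRIM15-OE and 3.05, 3.17 and 2.54 in EV, with a difference of 2.26 (SE 0.16, adjusted p = 8.97e-10). Neutrophil markers summed over the list of 8 lay between 39.1 and 40.0 CPM in HFD and 18.2 and 18.8 CPM in ND, with S100A9 the main member in HFD and ITGAM in ND. ITGAM, the only other listed marker above 1 CPM, had a mean of 8.88 CPM in HFD and 10.8 CPM in ND, ELANE was at 0 in every library, and CSF3R, FCGR3B, MPO and CXCR2 had too few reads to be tested. The listed markers are human genes, whereas the host's neutrophils are of the mouse. The part of neutrophils in these rises was not tested. C1R and C1S, proteases of the complement cascade, were low, with C1R at 12.1, 10.6 and 10.1 CPM in HFD, 2.67, 3.33 and 3.13 in ND, 0.801, 0.936 and 0.587 in TRIM15-OE and 0.863, 1.18 and 1.00 in EV. They rose by 1.83 and 1.66 with diet and had TRIM15 effects of -0.39 and -0.30 that did not pass.

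Highly expressed enzyme, protease and iron genes were among the diet-alone rises. TGM2, a transglutaminase that cross-links proteins, had 422, 437 and 432 CPM in HFD against 158, 169.5 and 158 in ND, a 2.66-fold rise, and 197, 188 and 198 CPM in TRIM15-OE against 203, 193 and 197 in EV. The TRIM15 effect on TGM2 had a 95% interval of -0.10 to 0.05. MMP7, the protease matrilysin, had 3937, 4043 and 3744 CPM in HFD and 1905, 1758 and 1823 in ND, and 1791, 1841 and 1852 CPM in TRIM15-OE and 1787, 1811 and 1820 in EV (difference 1.08, SE 0.047, adjusted p = 8.14e-13). TFRC, the transferrin receptor that brings iron into cells, rose by 1.11 with diet, from 175, 161 and 168 CPM to 368, 367 and 351 CPM. It had 619.7, 633 and 645 CPM in TRIM15-OE and 639, 619 and 622 CPM in EV, and its TRIM15 effect was 0.01 with a 95% interval of -0.06 to 0.09. HSPD1, the mitochondrial chaperone HSP60, rose by 1.12 with diet against a TRIM15 effect of -0.09 (adjusted p = 0.107), and DUSP4, a phosphatase that restrains MAP kinases, rose by 0.67 against a TRIM15 effect of -0.002.

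Several lipid genes rose with the diet and had no called TRIM15 effect. Of 18 tested genes of fatty acid synthesis and desaturation 9 rose and 2 fell with HFD. Over all genes 28.2% rose and 20.5% fell with HFD. With TRIM15-OE 3 rose (16.7%, near the 11.7% of all genes) and 2 fell, where 9.3% of all genes did. For 10 the difference was above 0 and for none below, at a background of 21.5% and 13.6%. SCD, which introduces the first double bond into fatty acids, had 290.3, 288 and 289 CPM in HFD and 206, 187 and 216 in ND, and 440.5, 448 and 456 CPM in TRIM15-OE and 454, 463 and 461 in EV (difference 0.55, SE 0.056, adjusted p = 1.45e-07). PLIN2, a coat protein of lipid droplets, had 221, 215 and 219.9 CPM in HFD and 150.2, 147 and 148 in ND but 149, 143 and 139.6 CPM in TRIM15-OE and 150.4, 151 and 146 in EV (difference 0.61, SE 0.047, adjusted p = 3.25e-09). ACLY and ELOVL6, which make cytosolic acetyl-CoA and lengthen fatty acids, rose by 0.49 and 0.57 with diet and had TRIM15 effects of -0.02 and -0.07 that did not pass. Shared exceptions were ELOVL7 (effects 0.81 and 0.24) and ACSL4, an acyl-CoA synthetase for polyunsaturated fatty acids (effects 0.72 and 0.14), whose TRIM15 call was lost when EV replicate 1, EV replicate 2, TRIM15-OE replicate 2 or TRIM15-OE replicate 3 was left out.

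Diet-alone falls of over 6-fold were found in GPNMB, a transmembrane glycoprotein of lysosomes, and CAPN8, a calpain protease of the stomach lining. GPNMB had 1.42, 1.77 and 1.54 CPM in HFD and 17.8, 17.2 and 17 CPM in ND, and 1.25, 1.80 and 1.96 CPM in TRIM15-OE and 1.73, 2.00 and 2.35 in EV. CAPN8 had 1.16, 1.55 and 1.31 CPM in HFD, 12.1, 11.6 and 10.4 in ND, 2.35, 2.07 and 1.69 in TRIM15-OE and 3.10, 3.13 and 2.04 in EV. Both culture groups stood near the HFD level of each gene, and the differences were -3.15 (SE 0.23, adjusted p = 1.87e-09) and -2.70 (SE 0.25, adjusted p = 4.06e-08). GPNMB is also made by macrophages. The macrophage markers AIF1, C1QA and C1QB were at 0 in all HFD and ND libraries, and the list summed to between 5.07 and 6.00 CPM in HFD and 4.48 and 5.36 CPM in ND. These are human genes, whereas host macrophages are of the mouse, so that the sums do not measure host macrophages. GDF15, a stress hormone, fell strongly with diet (-1.31) and slightly with TRIM15-OE (-0.18, a call lost without EV replicate 2 or 3 or TRIM15-OE replicate 2 or 3). It had 80.4, 86.2 and 82.2 CPM in HFD against 205, 214 and 199 in ND and 59.9, 50.8 and 51.3 CPM in TRIM15-OE against 60.1, 62.7 and 61.7 in EV (difference -1.14, SE 0.071, adjusted p = 1.7e-10).

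**Figure D2:**
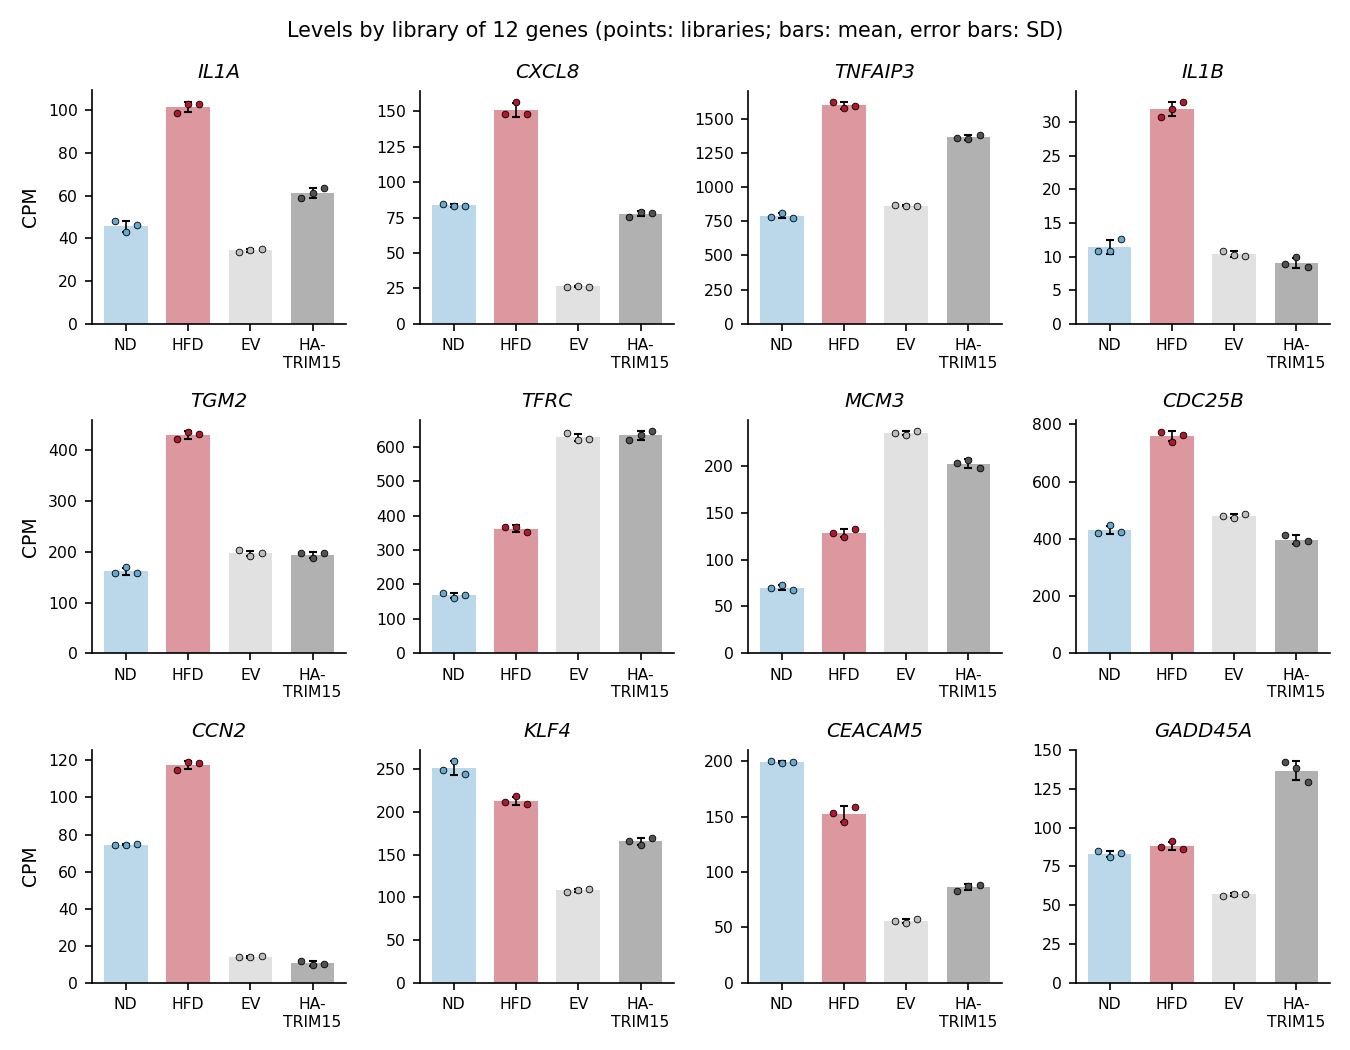
Levels in CPM (vertical axes, from 0) of 12 genes in the ND, HFD, EV and TRIM15-OE (HA-TRIM15) groups, with 1 point for each of the 3 libraries, bars at the mean and error bars of 1 SD. IL1A, CXCL8 and TNFAIP3 were higher on the right of each pair in both experiments, IL1B, TGM2 and TFRC were higher in HFD alone, MCM3, CDC25B and CCN2 rose with HFD and fell with TRIM15-OE, KLF4 and CEACAM5 did the reverse, and GADD45A rose with TRIM15-OE alone.

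Many growth genes rose with HFD and fell with TRIM15-OE. Of 47 tested DNA replication genes 26 rose with HFD and none with TRIM15-OE, 24 fell with TRIM15-OE (9.3% of all genes did) and 4 with HFD, and 15 were both higher with HFD and lower with TRIM15-OE. The difference was above 0 for 31 of the 47 and below 0 for 1. Of 39 tested genes of mitosis and the spindle checkpoint 24 rose with HFD (61.5%, against 28.2% of all genes) and 15 fell with TRIM15-OE (38.5%, against 9.3%). Of these, 8 did both, where 2.47% of all genes did, and the difference was above 0 for 28 (71.8%, against 21.5%). When any 1 library was left out, between 16 and 24 replication genes and between 13 and 18 mitotic genes fell with TRIM15-OE.

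MCM3, a subunit of the replicative helicase, had 128, 124 and 133 CPM in HFD and 69.6, 72.6 and 67.4 CPM in ND. In culture it had 203, 207 and 198 CPM in TRIM15-OE and 236, 234 and 237 CPM in EV. It rose by 0.88 (SE 0.037, adjusted p = 7.97e-14) with diet, against a TRIM15 effect of -0.22 (SE 0.035, adjusted p = 0.000166), and the difference was 1.09 (SE 0.051, adjusted p = 2.09e-12). MCM5, another subunit, had effects of 0.24 and -0.36. CDC25B, the phosphatase that starts mitosis by activating CDK1, had 773, 739 and 764 CPM in HFD and 422, 447 and 424 in ND, and 414, 386 and 391 CPM in TRIM15-OE and 480.3, 473 and 485 in EV, with effects of 0.81 and -0.27. PLK1, a mitotic kinase, followed with 0.58 and -0.26 (difference 0.84, SE 0.056, adjusted p = 3.33e-10). E2F1, the transcription factor of the replication genes, had effects of 0.19 and -0.31 (difference 0.50, SE 0.079, adjusted p = 4.64e-05). In MCM3, CDC25B and PLK1 the rise with diet exceeded the fall with TRIM15-OE in size, whereas in MCM5 and E2F1 the fall was the larger.

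Glycolysis genes showed the same contrast. Of 24 tested glycolysis genes 14 rose with HFD (58.3%, against 28.2% of all genes). With TRIM15-OE none rose and 14 fell (58.3%, against 9.3%). Of these genes 9 rose with HFD and fell with TRIM15-OE, where 2.47% of all genes did. The count that fell with TRIM15-OE was 7 without TRIM15-OE replicate 2 and 9 without EV replicate 3. LDHA, lactate dehydrogenase, had 2148, 2193 and 2124 CPM in HFD and 1768, 1652 and 1741 in ND, and 2209, 2283 and 2263 CPM in TRIM15-OE and 2386, 2452 and 2427 in EV (effects 0.33 and -0.10, the second of which did not pass without EV replicate 2 or 3). PFKFB3, which makes the activator of phosphofructokinase, had effects of 0.41 and -0.21 (difference 0.62, SE 0.05, adjusted p = 5.66e-09), and PGD, of the pentose phosphate pathway, 0.62 and -0.18 (difference 0.80, SE 0.047, adjusted p = 5.94e-11).

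Other genes that serve growth were contrasted in the same way. Over all genes 28.2% rose and 20.5% fell with HFD, and 11.7% rose and 9.3% fell with TRIM15-OE. The difference was above 0 for 21.5% of all genes and below 0 for 13.6%. Of 21 tested pentose phosphate and NADPH enzymes 13 rose with HFD and 10 fell with TRIM15-OE, with a difference above 0 for 14 and below 0 for none. Of 38 tested ribosome biogenesis genes 22 rose and none fell with HFD, while 2 rose and 9 fell with TRIM15-OE (4 and 5 fell without TRIM15-OE replicates 2 and 3), and the difference was above 0 for 25 and below 0 for none. Of 22 tested heat shock chaperones 15 rose with HFD and 2 with TRIM15-OE, and 5 fell with TRIM15-OE, a count that lay between 2 (without EV replicate 2) and 8 (without ND replicate 2). HSPA8, the constitutive cytosolic chaperone, had 1128, 1122 and 1103 CPM in HFD, 988, 929 and 954 in ND, 1884, 1874 and 1945 in TRIM15-OE and 2206, 2169 and 2138 in EV (effects 0.22 and -0.19). Hypoxia genes outside glycolysis rose with HFD in 17 of 31 cases (54.8%) and with TRIM15-OE in 5 (16.1%), the second near the share of all genes. The difference was above 0 for 15 (48.4%) and below 0 for 3 (9.68%).

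Some subunits of the respiratory chain fell with TRIM15-OE and none of those listed rose. Of 35 tested subunits of complexes III, IV and V 15 rose with HFD (42.9%, against 28.2% of all genes) and 1 fell. With TRIM15-OE none rose and 12 fell (34.3%, against 9.3%). The difference was above 0 for 23 (65.7%, against 21.5%) and below 0 for none. Without TRIM15-OE replicate 2 only 6 of them fell with TRIM15-OE. CYC1 of complex III had 173, 173 and 170.1 CPM in HFD, 143, 140.5 and 143 in ND, 189.9, 173 and 163 in TRIM15-OE and 204, 208 and 205 in EV (effects 0.28 and -0.23, difference adjusted p = 8.05e-07). Of 36 tested nuclear-encoded complex I subunits 5 rose (13.9%, against 28.2% of all genes) and 4 fell (11.1%, against 20.5%) with HFD, and 11 fell with TRIM15-OE (30.6%, against 9.3%). Among them NDUFS3 fell in both (effects -0.22 and -0.29) where NDUFV1 was opposed (effects 0.18 and -0.22). The count of complex I genes that fell with TRIM15-OE was 7 without EV replicate 2 or 3, 6 without TRIM15-OE replicate 2 and 4 without TRIM15-OE replicate 3.

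**Figure D3:**
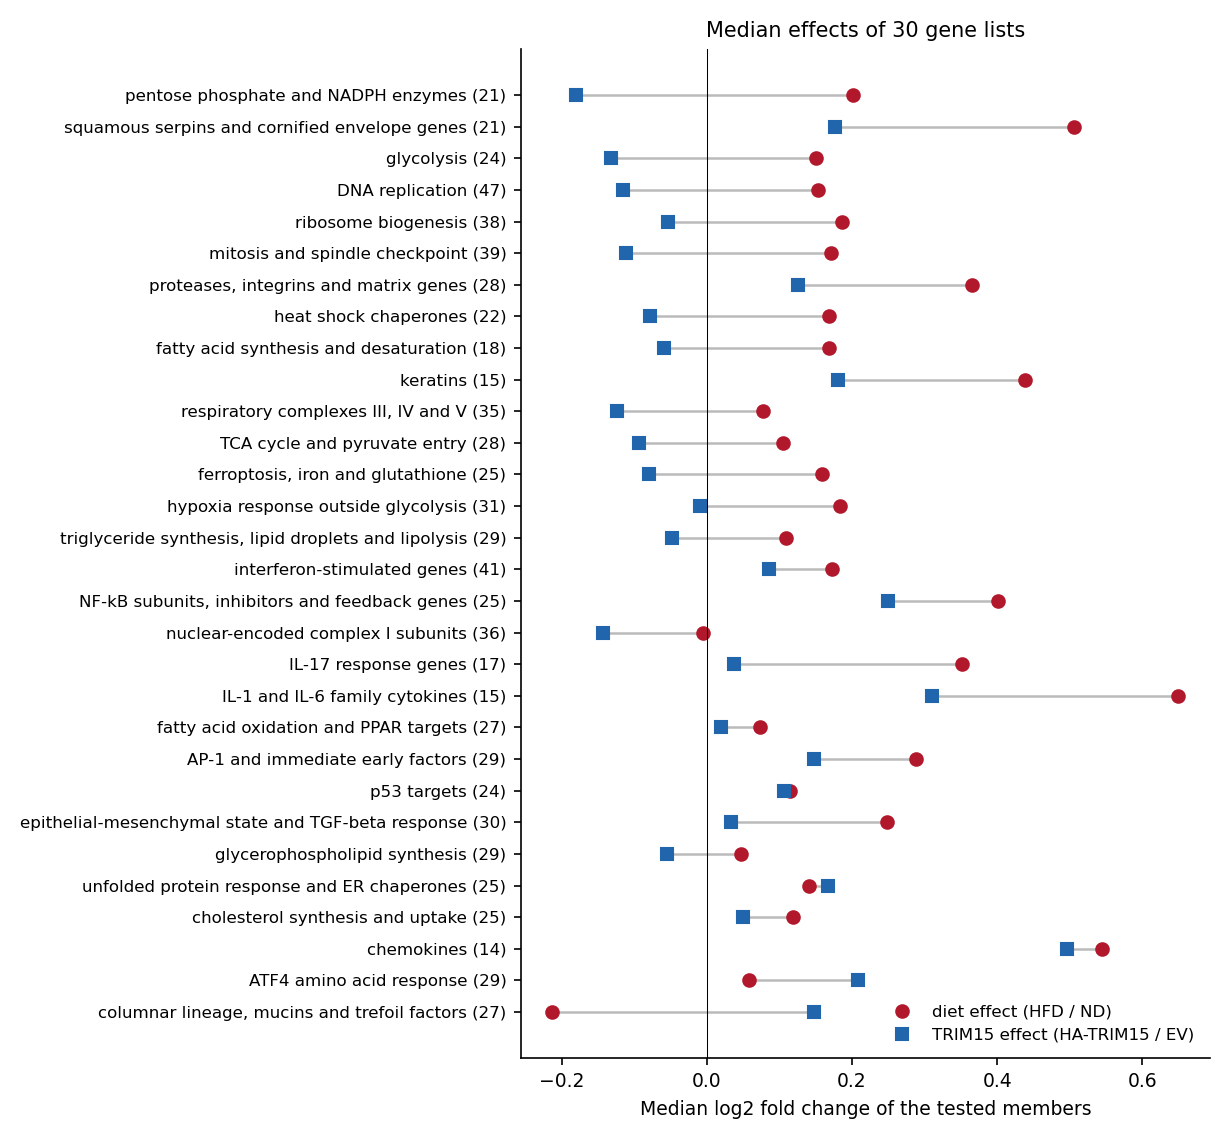
For 30 gene lists (rows, with the number of tested members), the median log2 fold change of the diet effect (circles) and of the TRIM15 effect (squares) is plotted on the horizontal axis, and rows are ordered by the median difference. Chemokines lie on the same side of 0 at 0.55 and 0.50, whereas DNA replication lies at 0.15 for diet and -0.12 for TRIM15, and glycolysis at 0.15 and -0.13.

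Genes of the epithelial-mesenchymal state and the TGF-beta response were split, since of 30 tested 8 rose with both, 5 rose with HFD and fell with TRIM15-OE, and 1 did the reverse. Over all genes these classes held 6.57%, 2.47% and 1.76%. CCN2, a matricellular protein induced by TGF-beta and YAP, had 115, 119 and 119 CPM in HFD and 74.5, 74.3 and 74.8 CPM in ND, and 11.6, 9.36 and 10.3 CPM in TRIM15-OE and 13.9, 13.8 and 14.7 in EV. Its effects were 0.66 and -0.43 (difference 1.08, SE 0.082, adjusted p = 2.35e-09). TGFBI, a matrix protein named for its induction by TGF-beta, had effects of 0.74 and -0.23, and ID1, a target of BMP signals, 0.43 and -0.30. CDH1, the adhesion protein E-cadherin, ran the other way, with 493, 488 and 498 CPM in HFD, 605, 589.8 and 602 in ND, 679, 703 and 696 in TRIM15-OE and 604, 586 and 585 in EV (difference -0.51, SE 0.041, adjusted p = 6.98e-09). SNAI1, which represses CDH1, rose with both by 0.87 and 0.87.

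For columnar and mucous genes most called differences lay below 0. Of 27 tested genes of columnar lineage, mucins and trefoil factors 12 fell (44.4%, against 20.5% of all genes) and 9 rose (33.3%, against 28.2%) with HFD. With TRIM15-OE 6 rose (22.2%, against 11.7%) and 2 fell (7.41%, against 9.3%). The difference was below 0 for 12 (44.4%, against 13.6%) and above 0 for 1 (none without ND replicate 1 or EV replicate 2, and 2 without ND replicate 3 or EV replicate 3). CEACAM5, the adhesion protein CEA of glandular tumors, had 153, 145 and 159 CPM in HFD and 200.5, 198 and 199.9 CPM in ND, and 83, 87.2 and 88.5 CPM in TRIM15-OE and 55.5, 54.1 and 57.6 in EV. Its effects were -0.39 and 0.63 (difference -1.01, SE 0.057, adjusted p = 2.97e-11), and those of AGR2, a disulfide isomerase of mucous cells, were -0.24 and 0.44. KLF4, a factor of differentiated epithelium, had 212, 219 and 209 CPM in HFD, 249, 260.4 and 244 in ND, 166, 162 and 170.1 in TRIM15-OE and 107, 109 and 109 in EV, with effects of -0.24 and 0.62. MUC13, a membrane mucin, fell with diet by 1.06 on the log2 scale and had a TRIM15 effect of 0.22 (adjusted p = 0.268).

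Stress genes were in part shared and in part opposed. Of 29 tested genes of the ATF4 amino acid response 19 rose (65.5%, against 11.7% of all genes) and 1 fell with TRIM15-OE. With HFD 10 rose (34.5%, against 28.2%) and 6 fell (20.7%, against 20.5%), both near the shares of all genes. Both effects were upward in 6 (20.7%, against 6.57% of all genes), while 4 rose with TRIM15-OE and fell with HFD (13.8%, against 1.76%). DDIT3, the stress factor CHOP, had 26.3, 23.6 and 26.8 CPM in HFD and 29.8, 29.9 and 30.4 in ND, and 23.6, 23 and 22.2 CPM in TRIM15-OE and 14.7, 15.1 and 14.9 in EV (difference -0.84, SE 0.082, adjusted p = 7.91e-08). ATF3, an immediate early stress factor, had 146, 145 and 138 CPM in TRIM15-OE against 41, 40.4 and 40.04 in EV, a 3.53-fold rise, and 288, 279 and 282 CPM in HFD against 303, 296 and 301 in ND. Its diet effect of -0.08 did not pass without HFD replicate 2 or 3 or without ND replicate 1 or 3, but the difference of -1.90 (SE 0.048) had an adjusted p of 1.36e-16. JUN, the AP-1 subunit, rose with both, by 0.40 and 1.07.

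Replication-dependent histone genes were opposed in the other sense, and as a group chosen after their values were seen they are given as counts with no test. They supply histones for new chromatin in S phase, and most of their transcripts end without a poly(A) tail. Of 69 genes with such symbols 37 were tested, and 30 of them fell with HFD (81.1%, against 20.5% of all genes) and none rose. With TRIM15-OE 20 rose (54.1%, against 11.7%) and none fell (8 rose by DESeq2's Wald test). The difference was below 0 for 35 of the 37, with median effects of -0.90 for diet and 0.88 for TRIM15. The summed level of the 69 genes was 108 to 110 CPM in HFD, 187 to 190 CPM in ND, 116 to 126 CPM in TRIM15-OE and 62.0 to 67.6 CPM in EV. The groups did not overlap in either experiment, as was so for 55.6% of single genes in the diet experiment and 36.0% in the TRIM15 experiment. Without the first TRIM15-OE library 17 rose with TRIM15-OE and 27 differences were below 0.

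H4C8, H2BC18 and H2BC9, which the naming rule picked, were low, as H4C8 shows with 1.25, 1.23 and 1.39 CPM in HFD, 3.47, 3.05 and 3.13 in ND, 2.30, 3.01 and 2.22 in TRIM15-OE and 0.914, 0.953 and 0.848 in EV. Their diet effects were -1.29, -1.55 and -0.92 and their TRIM15 effects 1.46, 1.12 and 2.05. Histone genes are near-identical copies, so that single members are uncertain. The libraries were made from RNA bound to poly-T beads, which capture transcripts by their tails. DNA replication genes, whose transcripts carry tails, had median effects of 0.15 for diet and -0.12 for TRIM15, as the plot of the 4 gene groups shows.

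**Figure D4:**
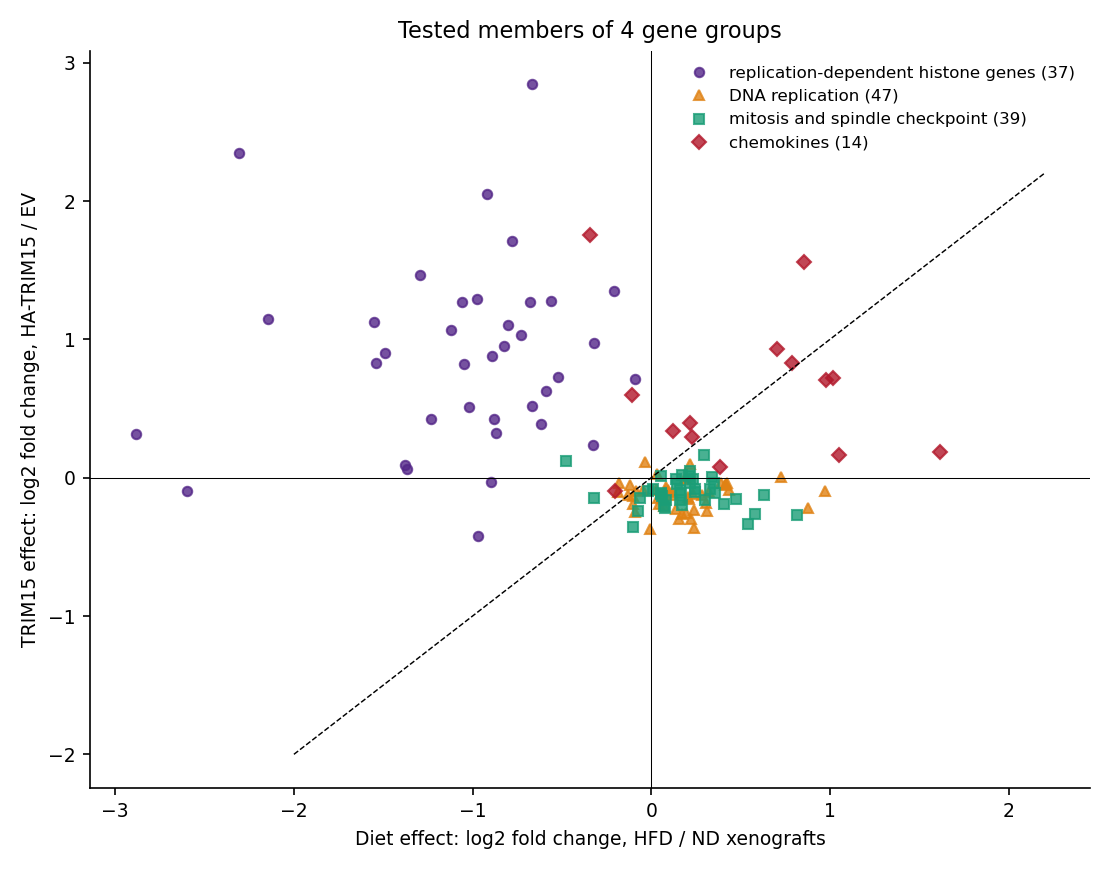
Each symbol is a tested gene, with the diet effect (log2 fold change, HFD against ND) on the horizontal axis and the TRIM15 effect (log2 fold change, TRIM15-OE against EV) on the vertical axis; the dashed line marks equal effects. Most of 37 replication-dependent histone genes lie at the upper left, most DNA replication and mitosis genes just below and right of the centre, and most chemokines at the upper right.

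CYP1A1 and MMP10 were single genes of the same opposed class. CYP1A1, the enzyme induced by the aryl hydrocarbon receptor, had 14.1, 14.7 and 14.1 CPM in HFD and 42.1, 43.3 and 38.7 CPM in ND, and 5.56, 4.61 and 4.69 CPM in TRIM15-OE and 2.69, 2.68 and 2.70 in EV (difference -2.44, SE 0.14, adjusted p = 2.97e-11). MMP10, the protease stromelysin-2, had 2.54, 2.31 and 2.73 CPM in HFD, 7.69, 7.34 and 7.82 in ND, 5.71, 7.29 and 6.65 in TRIM15-OE and 3.76, 2.99 and 3.89 in EV (difference -2.44, SE 0.17, adjusted p = 9.78e-10). Genes of these classes were named only where the groups did not overlap, so that the separation of the MMP10 libraries is not a result. In the mirror class, HSD17B2, an enzyme that inactivates sex steroids, had 3.14, 3.38 and 3.24 CPM in HFD, 1.70, 1.14 and 1.56 in ND, 0.501, 0.602 and 0.847 in TRIM15-OE and 1.22, 1.68 and 1.27 in EV (difference 2.31, SE 0.31, adjusted p = 6.71e-06).

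What TRIM15-OE added without a diet counterpart was a smaller set of 748 genes. GADD45A, a stress sensor that slows the cell cycle, had 142, 139 and 129.7 CPM in TRIM15-OE and 56, 57.3 and 57.5 CPM in EV, against 87.4, 91.2 and 86 CPM in HFD and 84.8, 80.8 and 83.8 in ND. It rose 2.40-fold with TRIM15-OE and had a diet effect of 0.09 (95% interval 0.00 to 0.17; difference -1.18, SE 0.056, adjusted p = 3.01e-12). CCL20, the chemokine that attracts CCR6-bearing lymphocytes, had 5.01, 4.28 and 5.93 CPM in TRIM15-OE and 1.78, 1.54 and 1.23 in EV but 2.71, 3.54 and 2.47 CPM in HFD and 3.29, 4.05 and 3.26 in ND (difference -2.10, SE 0.24, adjusted p = 8.72e-07). RELN, the secreted glycoprotein reelin, rose by 1.68 with TRIM15-OE from about 1 CPM. Of 107 genes that at least doubled with TRIM15-OE, 24 rose with HFD, 25 fell and 58 were not called. Of all genes 28.2% rose and 20.5% fell with HFD, and the counts lie near these shares.

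Single libraries decided a few of the extreme values. PPP1R11, an inhibitor of protein phosphatase 1, had 12.2, 1.80 and 1.82 CPM in TRIM15-OE against 1.12, 1.04 and 1.23 in EV, and its TRIM15 effect of 2.29 came to 0.67 without TRIM15-OE replicate 1. PRXL2B, an enzyme of prostaglandin synthesis, had 11.5, 2.95 and 2.19 CPM in HFD and 1.55, 1.97 and 1.65 in ND, and its diet effect did not pass without HFD replicate 1, when its difference of 2.42 came to 1.31. PYCR3, of proline synthesis, had 7.81, 4.88 and 2.48 CPM in TRIM15-OE and 1.83, 2.36 and 1.97 in EV, and the TRIM15 call was lost when any EV library or TRIM15-OE replicate 1 or 2 was left out.

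Among the genes at the centre of the study, most were called for TRIM15-OE. TRIM15 itself, with 0 or 1 reads in each ND and EV library, was called upward in both effects. Its difference did not pass (-5.37, SE 3.03, adjusted p = 0.187). YY2, a zinc-finger transcription factor, had 1.55, 0.911 and 1.67 CPM in HFD, 1.05, 1.16 and 1.30 in ND, 1.60, 1.27 and 1.82 in TRIM15-OE and 1.68, 1.36 and 1.27 in EV, and no effect passed. FOXRED1, an assembly factor of complex I, had 28.8, 28.3 and 28.7 CPM in HFD and 27.7, 31.2 and 28.2 in ND (effect -0.03, adjusted p = 0.673) and 32.4, 34 and 30.4 CPM in TRIM15-OE and 37.7, 37.9 and 38.4 in EV (effect -0.24, SE 0.055, adjusted p = 0.00414). The difference for FOXRED1 was 0.21 (SE 0.076, adjusted p = 0.0387) and did not pass when any library but HFD replicate 2, ND replicate 2 or TRIM15-OE replicate 2 was left out. Of the 12 genes that the study picked by combining its TRIM15 and YY2 RNA-seq with a CUT&Tag map of YY2 binding, 11 fell with TRIM15-OE, and since they were chosen on these TRIM15 libraries neither that count nor the sign of their difference is independent evidence. With HFD 3 of them fell (ATP13A1, QTRT1 and RBM23), E2F1 rose, and the other 8 were not called. The difference was above 0 for 8 of the 12 and below 0 for none, which the choice of genes that fall with TRIM15-OE in large part fixes.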

How the data were processed

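The authors deposited raw read counts per gene, 1 table for each experiment, with 61860 Ensembl identifiers that matched between the tables. A symbol was found for 61757 identifiers (99.83%), and 73 symbols stood on several. Per the labels the libraries were poly(A)-selected OE33 RNA. The submitters' processing notes list hg38 and mm10 as genome builds, the aligner, counter and use of strand are not given in the sources used here, and neither is the treatment of reads from the mouse host. Reads of overlapping, antisense and multi-copy genes are therefore uncertain. The labels name a directional library kit and the study's methods a non-directional one.

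The 12 libraries were fitted together in edgeR 4.0.16 (R 4.3.3) as 4 group means, with TMM scaling, filterByExpr (minimum count 10, minimum total 15; 17160 genes kept) and the quasi-likelihood test. The diet effect, the TRIM15 effect and their difference were contrasts of this fit, with p-values adjusted across the 17160 genes by the Benjamini-Hochberg method and a threshold of 0.05. Xenografts and cultures differ in every condition of growth, which the difference of differences removes only where it acts alike on both arms. The script was tested on simulated counts for 16925 genes, of which 50 were changed at each fold and the rest were not. It called 28.0%, 55.1%, 77.1% and 80.0% of genes whose difference had been set to 1.2-, 1.5-, 2- and 3-fold, and 3.28% of its calls were false. In the data 35.2% of genes had a called difference, so that these shares do not carry over to them.

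Members and lists were chosen with earlier results of these data known. Named genes were those central to the study, IL1A, IL1B and IL6, and, among genes with a mean of at least 1 CPM in a group of each experiment and non-overlapping groups in each called effect, the 6 of each class and direction with the largest effect (the smaller of both effects where both were called). To these came from each list up to 4 with the lowest p for the difference and up to 2 called in both effects. The text describes a selection of the named genes, picked with their values known. Promoters were read from a RefSeq table of GRCh38.p14 covering 27305 genes.

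Replicate numbers did not pair the libraries, since the deviations of same-numbered libraries correlated at -0.031 to 0.066 and none exceeded 0.1. Alternatives were other scalings and filters, a replicate block, DESeq2 1.42.0, limma 3.58.1 (voom with quality weights), thinning to equal totals, a fold threshold of 1.5 and leaving out each library. The tables of the YY2 and FOXRED1 experiments were not used here.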

Additional observations from a re-analysis of the deposited data

How the results depend on the processing

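A fold change of at least 1.5 in addition to the adjusted p left 870 genes with a difference above 0 and 844 below, 63 shared genes, 40 opposed genes, 1056 genes of diet alone and 127 of TRIM15 alone, so that most calls rest on small changes. Leaving out 1 library at a time gave 3286 to 3824 differences above 0, 2037 to 2291 below, 1142 to 1880 shared genes, 448 to 936 opposed genes, 3231 to 3857 genes of diet alone and 483 to 966 of TRIM15 alone. Opposed genes were 448 without TRIM15-OE replicate 2, 459 without EV replicate 3 and 482 without TRIM15-OE replicate 3, and genes of TRIM15 alone were 483 without TRIM15-OE replicate 3. Without TRIM15-OE replicate 1, the library that stood apart, there were 1880 shared and 936 opposed genes. With the replicate block there were 3637 differences above 0, 2255 below, 1547 shared and 698 opposed genes, and 3574 of diet alone. DESeq2's Wald test gave 3110, 1846, 1426, 562 and 3007. With TMM scaling within each experiment 3272 differences lay above 0 and 2659 below. No called direction of a named gene was reversed under any alternative run; 324 calls of named genes were lost and 65 gained, against 12211 that stayed on the same side of the threshold. The cause of these changes was not tested. In the simulated counts, where far fewer genes were changed than in the data, most differences of 1.2-fold were missed. How many were missed in the data was not tested, and a call absent from 1 effect does not show that the gene did not move.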

Other observations

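Some gene groups outside the main account divided between the experiments. For comparison, 28.2% of all genes rose and 20.5% fell with HFD, 11.7% rose and 9.3% fell with TRIM15-OE, and the difference was above 0 for 21.5% and below 0 for 13.6%. Of 17 tested IL-17 response genes 9 rose (52.9%) and 3 fell with HFD, and 5 rose (29.4%) and none fell with TRIM15-OE. Of 24 tested p53 targets 11 rose (45.8%) and 5 fell with HFD, and 10 rose (41.7%) and 3 fell with TRIM15-OE, 5 of them rising with both. Of 29 tested AP-1 and immediate early factors 16 rose (55.2%) and 7 fell with HFD, and 13 rose (44.8%) and 4 fell with TRIM15-OE. Their difference was above 0 for 13 and below 0 for 10. Of 25 tested genes of ferroptosis, iron and glutathione 13 rose (52.0%) and 4 fell with HFD, and 6 rose (24.0%) and 5 fell (20.0%) with TRIM15-OE, with a difference above 0 for 13 and below 0 for 3. Of 21 tested squamous serpins and cornified envelope genes 14 rose (66.7%) and 3 fell with HFD, and 8 rose (38.1%) and none fell with TRIM15-OE, with a difference above 0 for 10 and below 0 for 8. Of 29 tested genes of triglyceride synthesis, lipid droplets and lipolysis 13 rose (44.8%) and 5 fell with HFD, and 5 rose (17.2%) and 3 fell with TRIM15-OE.

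Markers of other cell types differed in level. T, B and NK cell markers summed to at most 1.59 CPM in every library. Fibroblast markers summed to between 23.5 and 26.9 CPM in HFD, 29.5 and 32.5 in ND, 12.0 and 12.8 in TRIM15-OE and 12.8 and 14.5 in EV. Endothelial markers summed to between 124 and 127 CPM in HFD, 101 and 112 in ND, 84.8 and 95.1 in TRIM15-OE and 94.8 and 100.01 in EV, so that HFD lay above ND without overlap. Adipocyte markers summed to between 92.9 and 98.0 CPM in HFD, 71.4 and 75.2 in ND, 85.9 and 94.0 in TRIM15-OE and 91.0 and 97.2 in EV, with ADIPOQ at 0 in all libraries. The markers are human genes, whereas the host cells of a xenograft are of the mouse. Cultured OE33 cells, which have no host, gave endothelial and adipocyte sums of similar size. These sums therefore cannot be read as amounts of vessel or fat. Of the endothelial list only ENG, EGFL7 and ESAM had enough reads to be tested, and of the adipocyte list only LIPE and PPARG. The part of these cells in the results was not tested.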
